A study of Mus musculus with 12 samples.

Results

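Cholesterol is built from acetyl-CoA through the mevalonate pathway, and most genes of this pathway are switched on together by the transcription factor SREBP-2, the product of Srebf2. When sterols in the endoplasmic reticulum are low, the escort protein Scap carries SREBP-2 to the Golgi, where proteases release its active part. When sterols are plentiful, Insig1 holds Scap back, and Insig1 is itself an SREBP target. Activated lymphocytes are known to need this pathway for the membranes of dividing cells.

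The mRNA levels of 8 genes of this system were followed in mouse splenic B cells. They were taken by gene symbol from a table of normalized counts that lists 29486 genes, and all 8 were found in it. Of these genes 6 encode enzymes (Hmgcs1, Idi1, Fdft1, Sqle, Lss and Cyp51), and Insig1 and Srebf2 encode the sensor partner and the transcription factor. All 8 passed the minimum of 10 normalized counts, as a mean over the conditions, which 14966 genes passed.

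Primary B cells from spleens of C57BL/6Babr mice were purified with an isolation kit and activated with lipopolysaccharide (LPS, 10 µg/ml), a bacterial mitogen that every group received. Polyadenylated RNA was sequenced in 3 conditions, with 4 biological replicates each. The first group received LPS for 48 h. The second received LPS for 48 h and then etoposide (20 µM, 4 h), a topoisomerase II poison that causes DNA double-strand breaks. The third received LPS for 47 h, the ATM kinase inhibitor KU55933 (10 µM) 1 h before etoposide, and etoposide (20 µM, 4 h), where ATM is the kinase that signals such breaks. No group received KU55933 without etoposide. The control RNA was collected at the same time as the etoposide RNA according to the design text, while the labels of single samples do not state this. The age and sex of the mice are not given in the labels, and no label says whether animals were pooled.

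The values have a limit that governs all that follows. Within a condition the 4 columns are exact multiples of each other, to within 1.4e-14 (log2), and thus hold 1 fitted mean per condition times a factor per library. They hold no spread between replicates, and no test between conditions could be made on them. Differences are therefore given as sizes, and a gene is counted as past the fold when it differs by at least 1.5-fold. The intervals in parentheses are 95% intervals for the counting error of the fitted reads, summed over 4 libraries, and are narrower than any interval with biological spread would be. Beside a median of the 8 genes, the limits are the averages of the limits of its 2 middle genes. They are not a 95% interval of that median. Depth, taken as the column total in units of 1000000 counts, was 20.7 to 23.9 for LPS, 22.5 to 30.6 for etoposide and 20.4 to 25.1 for the third group. Each condition carries 2 Illumina indexes that no other condition carries, so index and condition cannot be told apart. All 6 B cell markers examined were abundant, the 6 T cell markers had at most 4.16 counts in any condition, and the highest macrophage marker reached 219 counts.

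The 8 genes lie on 5 mouse chromosomes in build GRCm38 with the GENCODE M21 annotation. Hmgcs1 (ENSMUSG00000093930, chr13:119690379-119708260, plus strand) and Idi1 (ENSMUSG00000058258, chr13:8885501-8892451, plus strand) lie on chromosome 13. Sqle (ENSMUSG00000022351, chr15:59315077-59331192, plus strand) and Srebf2 (ENSMUSG00000022463, chr15:82147181-82205379, plus strand) lie on chromosome 15. Cyp51 (ENSMUSG00000001467, chr5:4081145-4104746, minus strand) and Insig1 (ENSMUSG00000045294, chr5:28071363-28078662, plus strand) lie on chromosome 5. Fdft1 (ENSMUSG00000021273) is at chr14:63145150-63179578 on the minus strand, and Lss (ENSMUSG00000033105) is at chr10:76531588-76557138 on the plus strand. All are annotated as protein-coding, and the counts are sums over the exons of each gene.

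SREBP-2 binds sterol regulatory elements together with the factors NF-Y and Sp1, so the promoters were searched on both strands for the letters of 4 motifs. These were CACNCCAC, the core of a sterol regulatory element, CCAAT, the NF-Y box, GGGCGG, the Sp1 box, and CACGTG, the E-box. RefSeq promoter windows (GRCm38.p6, 250 bases before to 50 after the start) were found for 6 of the 8 genes, all but Sqle and Fdft1. CCAAT was in all 6, against 37.4% of 32851 promoters of the same length, and GGGCGG was also in all 6, against 35.7%. CACNCCAC was in 2 of the 6, Hmgcs1 and Insig1, against 6.24% of all promoters. CACGTG was in 1, Insig1, against 7.15%. The other sterol synthesis enzymes with a window held CCAAT in 11 of 12, GGGCGG in 11 of 12, CACNCCAC in 1 of 12 and CACGTG in 3 of 12. Here an enzyme was counted when any of its windows held the motif, while the percentages are shares of single promoters. Those percentages cover promoters of all genes and not of highly expressed genes alone. A match of letters is a description of the sequence and not a site of binding, which was not measured here.

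The windows of 30 bases that follow show the CCAAT box nearest before the start and the sterol element letters where they lie before both the RefSeq and the GENCODE start of the gene. Capitals mark CCAAT or CACNCCAC or their reverse complements, all 5 windows are read on the plus strand from 5′ to 3′, and their coordinates are in GRCm38.p6.
Hmgcs1, CCAAT box, chr13:119690293-119690322: gtccccgcctctcATTGGctgaaagcggat
Hmgcs1, sterol element letters, chr13:119690204-119690233: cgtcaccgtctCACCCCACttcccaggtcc
Lss, CCAAT box, chr10:76531530-76531559: tggtgatgctctgATTGGccgagctcgcat
Insig1, CCAAT box, chr5:28071183-28071212: ccgccctcctcccATTGGctccggcggcct
Srebf2, CCAAT box, chr15:82147121-82147150: gcttcgcgcgccgATTGGctaatgcaagcc

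In each of the 4 CCAAT windows shown the box is in the reverse orientation and is followed by a C. Counted from the RefSeq start, where −1 is the base just before it, the boxes begin at −45 in Hmgcs1, −62 in Lss, −216 in Insig1 and −135 in Srebf2. The sterol element letters of Hmgcs1 begin at −136, and those of Insig1 begin at −9, inside the GENCODE gene. The nearest boxes of Cyp51 (−29) and Idi1 (−14) also lie inside the GENCODE gene, whose start is placed further upstream. Read along its gene, the box of Cyp51 is in the forward orientation and that of Idi1 in the reverse. The shared orientation thus holds for the windows shown and not for all 6 genes.

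The first question was how these transcripts stood in B cells that divide under LPS alone. All 8 were abundant, from 3214 normalized counts under LPS for Fdft1 to 16020 for Hmgcs1. As means over the 3 conditions, their normalized counts lay between the 82.6th percentile (Fdft1) and the 97.7th percentile (Srebf2) of the 14966 genes. Per kilobase of exon, which allows levels to be compared between genes, Hmgcs1 was highest with 3487 normalized counts per kb under LPS. It encodes HMG-CoA synthase, which condenses acetyl-CoA and acetoacetyl-CoA. Idi1, the isomerase that makes dimethylallyl diphosphate, followed at 3199 counts per kb. Cyp51, the lanosterol demethylase, stood at 2378 counts per kb, Insig1 at 2312 and Srebf2 at 2112. Sqle, the squalene epoxidase, reached 1098 counts per kb. Fdft1, the squalene synthase at the branch point to sterols, reached 760.3, and Lss, the lanosterol synthase that closes the ring system, 527. With no spread between replicates at hand, neighbours in this order cannot be said to differ or not. Lss has the longest exonic length, 10.8 kb, as the union of all its annotated exons, which lowers its value per kb.

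With etoposide, all 8 genes were lower than with LPS alone. The differences ran from 3.41-fold for Hmgcs1 to 1.47-fold for Idi1. The median log2 difference of the 8 genes was −1.06 (−1.09 to −1.03), while the median of all 14966 genes was −0.017. By the fold criterion 7 of the 8 were lower by at least 1.5-fold, as were 16.0% of all genes. By at least 2-fold 4 of the 8 were lower, as were 5.85% of all genes. Since the 8 genes are highly expressed, genes with a mean of at least 1000 counts are the nearer background: their median log2 difference was −0.13, and 19.0% of these 5439 genes were lower by at least 1.5-fold. In the other direction 20.8% of all genes were higher by at least 1.5-fold, and none of the 8 was.

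Of every 1000000 normalized counts, the 8 transcripts together made up 2977 under LPS, 1511 in the etoposide group and 1391 when KU55933 preceded etoposide. The share of all counts held by the 8 transcripts with etoposide was thus 50.8% of its value under LPS. Because the values are relative to the library, fewer cells expressing these genes and less of their RNA per cell cannot be told apart. Levels of the B cell markers moved as well, and summed to 132768 normalized counts under LPS, 73452 in the etoposide group and 82606 when KU55933 preceded it. By at least 1.5-fold 5 of the 6 were lower with etoposide, as were 16.0% of all genes and 19.0% of those with a mean of at least 1000 counts. All 6 were lower with etoposide, with a median log2 difference of −0.66. The largest of these differences was that of Cd22, at −2.48, and the smallest that of Cd79a, at −0.50. T cell markers summed to 11.4, 13.1 and 13.4 counts, macrophage markers to 415, 470.0 and 431, and red blood cell markers to 70.6, 92.3 and 46.3, in the same order. The macrophage sum hides unlike differences of its genes. Of the 5 with a mean of at least 10 counts, 3 were higher and 2 lower with etoposide, with a median log2 difference of 0.49. They ran from −0.75 for Itgam (219 to 130 counts) to 2.04 for Cd14 (5.14 to 24.3 counts). The part of cell composition or B cell state in the result was not tested.

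**Figure D1:**
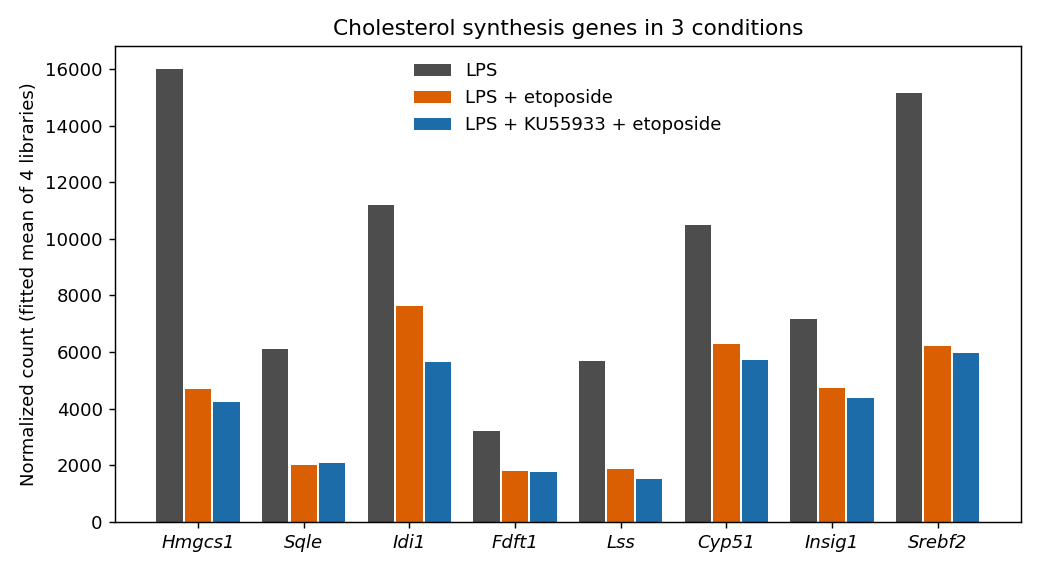
Normalized counts of the 8 genes (y axis, linear from 0) in the 3 conditions, where each bar is the mean fitted for a condition over 4 libraries and no error is drawn because the columns hold no replicate spread. All 8 genes are lower in both etoposide conditions than under LPS, and the gap is widest for Hmgcs1, from 16020 to 4698 and 4221.

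In the early steps of the pathway, Hmgcs1 had deposited values of 13181, 14623, 15212 and 13707 in the LPS libraries and of 4547, 5096, 6172 and 4940 in the etoposide libraries. With KU55933 and etoposide they were 3828, 4317, 4624 and 4701. The 4 values of a condition are 1 fitted mean scaled by depth and not 4 measurements. Whether the values of 2 conditions overlap thus adds nothing to the difference of the fitted means, for this gene and those that follow. After division by the library factors, Hmgcs1 stood at 16020 normalized counts with LPS and 4698 with etoposide, a log2 difference of −1.77 (−1.79 to −1.75), and only 0.735% of all genes differed as far downward or further. Idi1, which acts later on isopentenyl diphosphate, had 9224, 10234, 10645 and 9592 in the LPS libraries, 7369, 8260, 10004 and 8007 in the etoposide libraries and 5127, 5781, 6193 and 6295 with KU55933 and etoposide. Before depth was removed, the LPS and etoposide values of Idi1 overlapped, and after it they were 11211 and 7615 normalized counts. This was the smallest difference among the 8 genes (log2 −0.56, −0.58 to −0.54), just short of 1.5-fold, and 17.0% of all genes were as low.

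The enzymes that commit carbon to squalene and close the sterol ring differed by unequal amounts. Sqle, which adds the oxygen to squalene and is a second control point of the pathway, had 5012, 5560.2, 5784 and 5212 in the LPS libraries, 1931, 2164, 2621 and 2098 with etoposide and 1882, 2122, 2273 and 2310.5 with KU55933 and etoposide. All 4 LPS values were above all the others, and the normalized counts of 6091 and 1995 gave a log2 difference of −1.61 (−1.65 to −1.57) with etoposide. Lss had 4677, 5189, 5398 and 4864 in the LPS libraries, 1797, 2014, 2439 and 1953 with etoposide and 1360.4, 1534, 1644 and 1671 with KU55933 and etoposide. It was lower by nearly the same amount, from 5685 to 1857 normalized counts (log2 −1.61, −1.65 to −1.58). Fdft1, one step before Sqle, ranged from 2644 to 3052 in the LPS libraries and from 1740 to 2362 in the etoposide libraries. Its normalized counts were 3214 and 1798, a smaller difference (log2 −0.84, −0.88 to −0.80). Cyp51, the first enzyme after the ring is closed, ranged from 8639 to 9970 with LPS and from 6070 to 8240 with etoposide, and was 1.67-fold lower (log2 −0.74, −0.77 to −0.72).

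Of the regulators, Srebf2 differed most. Its deposited values were 12481, 13847, 14405 and 12980 in the LPS libraries, 6020, 6748, 8172 and 6541 with etoposide, and 5406, 6096, 6531 and 6638 with KU55933 and etoposide. The normalized counts of Srebf2 were 15170.5 with LPS and 6221 with etoposide, a 2.44-fold difference (log2 −1.29, −1.31 to −1.26). Insig1 ranged from 5883 to 6789 with LPS and from 4570 to 6203 with etoposide before depth was removed, so that these ranges overlapped. Its normalized counts were 7150.4 and 4722 (log2 −0.60, −0.63 to −0.57), which is just past 1.5-fold, and 15.5% of all genes were as low.

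The sizes that pass 1.5-fold depend on how the libraries are put on 1 scale. Hmgcs1, Sqle, Lss and Srebf2 were past it under every scaling and filter tried. Cyp51 was short of it with quantile normalization (−0.44). Insig1 was short of it with quantile normalization (−0.36), library totals (−0.48), the upper quartile (−0.53), a minimum mean of 50 counts (−0.55) and the trimmed mean of M values (−0.58), and Idi1 passed it with no filter on low values (−0.66). Under the columns as deposited, which leave depth in the values, Idi1 was at −0.24, Insig1 at −0.28, Cyp51 at −0.42 and Fdft1 at −0.52, so that 4 of the 8 genes were past the fold. All 8 stayed below 0 under each of these settings.

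Some reads of these genes may belong to neighbours. Fdft1 shares 774 of its 4227 exonic bases with Ctsb, the cathepsin B gene on the opposite strand, which was higher with etoposide (2268 against 4154 normalized counts, log2 0.87). Cyp51 shares 166 of 4415 exonic bases with Akap9 on the opposite strand, which was at 5940.0, 6092 and 5910.0 normalized counts in the 3 conditions. Lss shares 381 of 10787 bases with 4930483K19Rik on the opposite strand, which had 34.4, 8.65 and 7.45 counts. Hmgcs1 and Idi1 overlap the opposite-strand entries Gm48342 (557 bases) and Gm48574 (323 bases), which were not analysed here. The library kit keeps strand, but the strand setting of the counting is not given in the sources used here, so reads of overlapping exons cannot be told apart. Processed pseudogenes of these genes were not examined.

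The next comparison was of KU55933 and etoposide with etoposide alone. Without a group given KU55933 alone and without a replicate spread, the part of ATM in these levels could not be tested. None of the 8 genes was nearer to its LPS level by 1.5-fold or more. The median log2 difference between KU55933 with etoposide and etoposide alone was −0.12 (−0.15 to −0.093), beside −0.038 for all genes and −0.051 for genes with a mean of at least 1000 counts. In this comparison 10.7% of all genes were lower and 6.98% higher by at least 1.5-fold, and 0 of the 8 genes were either. This comparison shares its etoposide libraries with the comparison of etoposide and LPS, so that the differences are not independent.

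Single genes differed modestly. Idi1 was 1.35-fold lower with KU55933 (7615 and 5653 normalized counts, log2 −0.43, −0.45 to −0.41), the largest difference of the 8. Lss was 1.24-fold lower (1857 and 1500.2 counts, log2 −0.31, −0.36 to −0.26), and Hmgcs1 1.11-fold lower (log2 −0.15, −0.18 to −0.13). Cyp51 was at −0.13 (−0.15 to −0.10) and Insig1 at −0.11 (−0.14 to −0.081). The remaining genes lay closest to 0: Srebf2 at −0.061 (−0.086 to −0.037), Fdft1 at −0.025 (−0.071 to 0.021) and Sqle at 0.056 (0.014 to 0.099). Their signs depended on the scaling, since Fdft1 was at 0.024 when libraries were scaled by their totals, Srebf2 at 0.026 with quantile normalization, and Sqle at −0.038 in the columns as deposited. Without a replicate spread, neither a difference nor its absence is shown for any of the 8.

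Against LPS alone, the cells with KU55933 and etoposide were lower in all 8 genes, with a median log2 difference of −1.17 (−1.19 to −1.14). All 8 were past 1.5-fold, as were 15.4% of all genes and 19.7% of genes with a mean of at least 1000 counts. Insig1 was short of it with library totals (−0.54), quantile normalization (−0.36) and the columns as deposited (−0.48), and Cyp51 with quantile normalization (−0.49). By at least 2-fold 4 of the 8 were lower, as were 5.81% of all genes, and 19.6% of all genes were higher by at least 1.5-fold. The values of the 8 genes were −1.92 for Hmgcs1, −1.92 for Lss, −1.55 for Sqle, −1.35 for Srebf2, −0.99 for Idi1, −0.87 for Cyp51, −0.86 for Fdft1 and −0.71 for Insig1. Idi1 had the smallest difference with etoposide alone and the fifth largest here, and Cyp51 and Fdft1, which lay close together, changed places. Hmgcs1, Sqle, Lss and Srebf2 were the 4 genes past 2-fold in both comparisons with LPS, which share the LPS libraries.

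**Figure D2:**
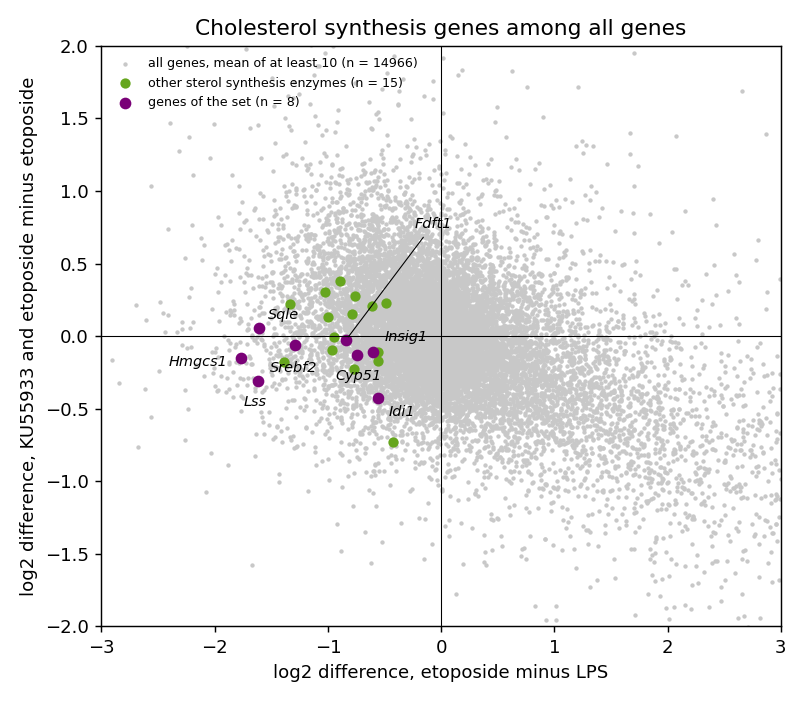
Each point is a gene with a mean of at least 10 normalized counts, with the log2 difference of etoposide minus LPS on the x axis and of KU55933 and etoposide minus etoposide on the y axis, which share the etoposide libraries, and 360 genes lie outside the axes. The 8 genes (purple) all lie left of 0, from −1.77 (Hmgcs1) to −0.56 (Idi1), and within 0.43 of 0 on the y axis, with 15 other sterol synthesis enzymes in green.

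The remaining enzymes of the pathway show whether the 6 enzymes described are a selected few. A list of 21 sterol synthesis enzymes was followed, 15 of them outside the 8 genes. All 21 were lower with etoposide, with a median log2 difference of −0.84, beside −0.017 for all genes. By at least 1.5-fold 16 were lower, as were 16.0% of all genes and 19.0% of those with a mean of at least 1000 counts. The 15 others alone had a median of −0.79, 15 of 15 lower, 11 past 1.5-fold and 4 past 2-fold. Lower by at least 2-fold were 5.85% of all genes. Among these, and named after their values were seen, were Sc5d (−1.33), the desaturase of a late step, Dhcr7 (−1.0), which acts near the end of the pathway, and Mvd (−1.03), the decarboxylase that ends the mevalonate steps. Dhcr7 (log2 −1.00008) and Mvd lay close to the 2-fold line, and the count of 4 under other scalings is not reported here. Together the 21 transcripts made up 4433 of every 1000000 counts under LPS and 2525 with etoposide, 57.0% of the LPS share.

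With KU55933 the 15 other enzymes had no common direction: 8 were higher and 7 lower than with etoposide alone, with a median of 0.13, where the 6 enzymes among the 8 genes were lower in 5 cases. Acat2, the thiolase of the first step, was the single enzyme past 1.5-fold in this comparison, where 10.7% of all genes were lower by at least 1.5-fold. It had 3442, 2569 and 1549.8 normalized counts in the 3 conditions and a log2 difference of −0.73. Pmvk, the phosphomevalonate kinase, was at 0.38, the highest of the list. Idi1 and Acat2, which had the smallest differences from LPS with etoposide among the 8 genes and among all 21 enzymes, were the enzymes with the largest differences downward with KU55933, in comparisons that share the etoposide libraries. Against LPS, the cells with KU55933 and etoposide were lower in 21 of 21 enzymes, with a median of −0.87. By at least 1.5-fold 17 of the 21 were lower, as were 15.4% of all genes and 19.7% of those with a mean of at least 1000 counts.

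**Figure D3:**
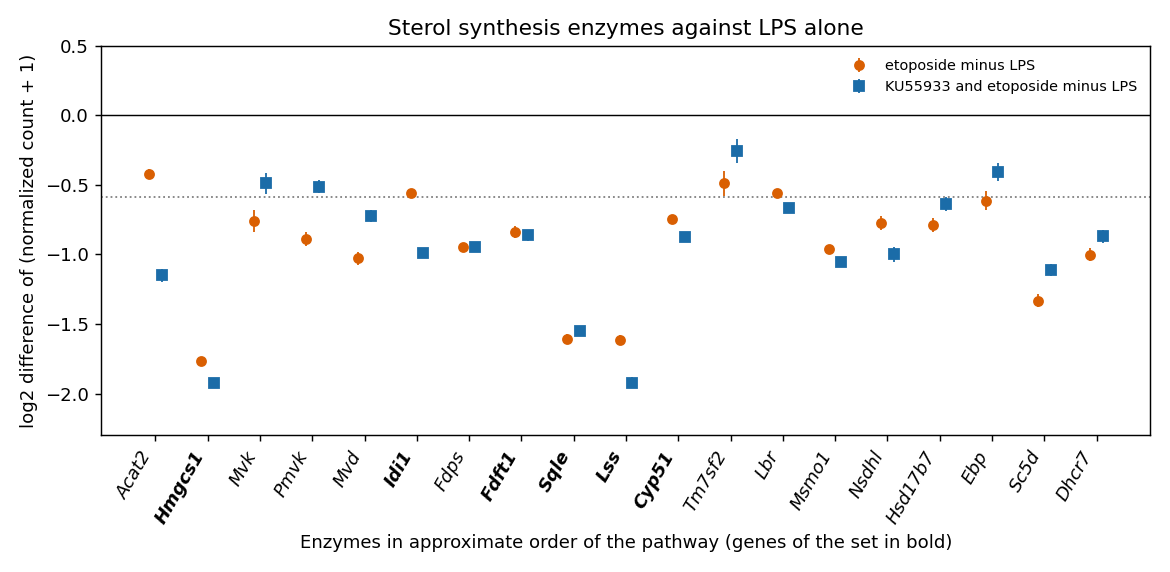
Log2 differences from LPS alone (y axis) for 19 of the 21 sterol synthesis enzymes in approximate order of the pathway (x axis, the 6 enzymes of the set in bold), with circles for etoposide, squares for KU55933 and etoposide, bars for the 95% counting interval and a dotted line at 1.5-fold lower. Every symbol lies below 0, Hmgcs1, Sqle and Lss lie lowest, and for Idi1 and Acat2 the square is well below the circle.

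The genes that sense sterols and process SREBPs did not share 1 direction. Of 10 such genes, Insig1 and Srebf2 included, 3 were higher and 7 lower with etoposide, with a median of −0.23. Past 1.5-fold were Srebf2 and Insig1 downward and Scap, the SREBP escort, upward, from 2126 to 3821 normalized counts (log2 0.85). By as much 16.0% of all genes were lower and 20.8% higher, so that counts this small do not set the list apart. With KU55933 Scap was at 2648 counts, lower than with etoposide alone (log2 −0.53), and Mbtps2, the site-2 protease, was at 0.28. In this comparison 0 of the 10 were past 1.5-fold, where 10.7% of all genes were lower and 6.98% higher by as much. Srebf1, the related factor that acts mainly on fatty acid synthesis, was named after its values were seen and was at 3301, 3144 and 3035 counts in the 3 conditions, so that Srebf2 and Srebf1 stood apart with etoposide (−1.29 and −0.070).

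Genes of cholesterol uptake and efflux, beside which the synthesis genes can be read, had no common direction with etoposide. Of 13 genes, 4 were higher and 3 lower by at least 1.5-fold, with a median of −0.0098, where 20.8% of all genes were higher and 16.0% lower, so that counts this small do not set the list apart. Stard4, a carrier of cholesterol between membranes, was at 6254, 2670.1 and 2834 counts (log2 −1.23). It is a known SREBP-2 target. In the other direction Abca1, the cholesterol exporter, was at 420, 1090 and 547 counts, a log2 difference of 1.38 with etoposide and of −0.99 with KU55933. Scarb1, a lipoprotein receptor, was at 1259, 1953 and 991 counts, with 0.63 and −0.98. The other genes higher by at least 1.5-fold with etoposide, named after their values were seen, were Abcg1 (0.77) and Nr1h3 (2.39, from 7.87 to 45.6 counts). With KU55933, 1 of the 13 was higher and 4 were lower by at least 1.5-fold, as were 6.98% and 10.7% of all genes. Abcg1 was lower by 0.80 on the log2 scale, together with Abca1 and Scarb1, and Mylip, a ubiquitin ligase named after its values were seen, was higher by 0.71. The 8 genes differed in the same direction as Stard4 with etoposide, in a list where 6 of the 13 genes were higher and 7 lower. The part of SREBP-2 in this was not tested. The differences of Abca1 and Scarb1 with KU55933 were larger than those of any of the 8 genes.

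**Figure D4:**
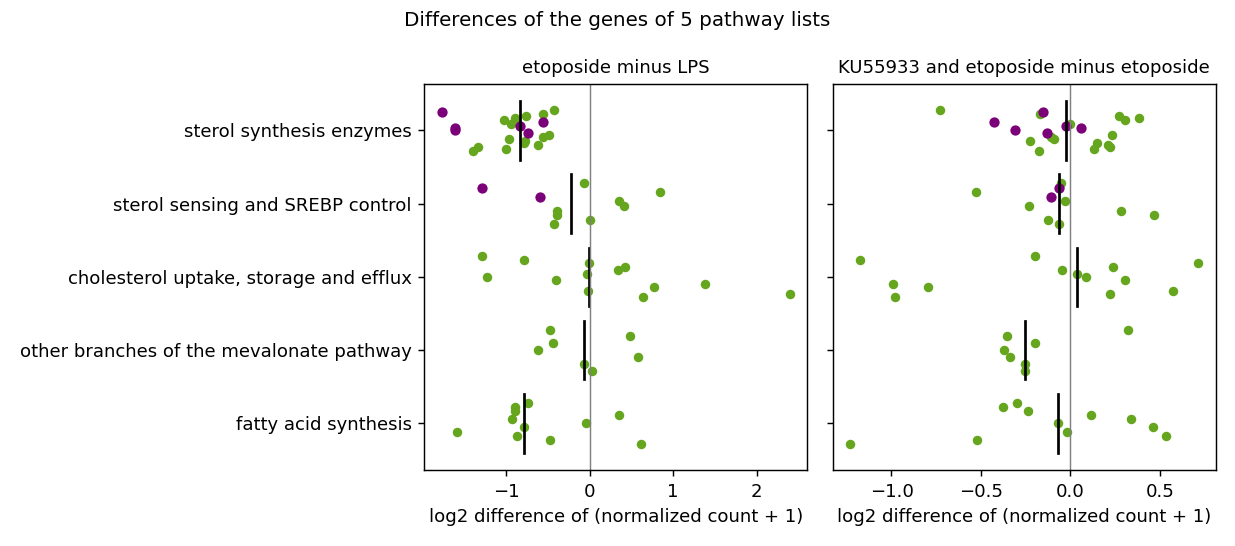
Log2 differences (x axes) of single genes in 5 pathway lists (rows), with etoposide against LPS on the left and KU55933 and etoposide against etoposide on the right, purple points for the 8 genes, green for other genes and a black bar at the median of each list. On the left the enzyme list has all 21 genes below 0 with a median of −0.84, while the uptake and efflux list spreads to both sides around −0.0098, and on the right the median of the enzyme list is −0.025.

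Genes outside the lists with a similar pair of differences were ranked by their distance from the pair of medians of the 8 genes, −1.06 and −0.12, over 3 conditions and 10804 genes with a mean of at least 100 counts. The nearest was Cbx3, a heterochromatin protein, at a distance of 0.014 (3799, 1832 and 1698 normalized counts). It was followed by Fem1a (0.028), Ywhae (0.033), Klhl6 (0.038) and Irf2 (0.039). Within a distance of 0.1 there were 42 genes, and no function is implied by the likeness.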

How the data were processed

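Polyadenylated RNA of 12 libraries was sequenced as single-end reads from a stranded kit. Per the labels and the methods of the study, the authors trimmed with Trim Galore and cutadapt 1.2.1, mapped to GRCm38 with TopHat2 2.0.12, counted exon reads on Ensembl genes with HTSeq and fitted DESeq2 1.6.3. The deposited table holds a signal per library (fitted normalized counts). The comparison tables of the authors hold fold changes, standard errors, Wald scores and p-values, which were not used, and a mean signal deposited by the authors, which was used only for 1 alternative scaling. Normalized counts were the columns divided by median-of-ratios factors over genes with a mean of at least 10, which ranged from 0.823 to 1.31. Differences are of log2(normalized count + 1). The pseudocount of 1 understates differences of low genes. The planned limma test was to be run only if columns were not proportional, and was not run. All values in the 3 comparisons are descriptions with no p-value. Intervals at the 95% level cover counting error only.

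The genes and lists were chosen with earlier results of these data known. Genes named from a list are the 3 with the largest differences in etoposide against LPS or in KU55933 and etoposide against etoposide with a mean of at least 100 counts, and the nearest genes are the 5 with the smallest distance. Some genes of the lists enter the counts and medians and are not reported here by name. Others are marked as named after their values were seen. Depth limits precision little here, since the 8 genes had between 6209 (Lss) and 56722 (Hmgcs1) fitted reads per condition. Exonic lengths are from GENCODE M21, which covers 99.2% of the genes in the table. The scaling functions were tested on simulated data. Alternatives were other scalings, filters, pseudocounts, a 2-fold criterion and each library left out, and the background among genes with a mean of at least 1000 was added after seeing the data. Computation used Python 3.11.15 with numpy 2.4.6, pandas 2.3.3, scipy 1.17.1 and matplotlib 3.10.9.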

Additional observations from a re-analysis of the deposited data

How the results depend on the processing

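No paired analysis was possible because the columns hold 1 fitted mean per condition, so that libraries with the same replicate number do not deviate from it. In the comparison of etoposide and LPS, the median log2 difference of the 8 genes was −0.95 with library totals, −0.997 with the upper quartile, −0.88 with quantile normalization, −0.74 with the columns as deposited, −1.17 with no filter and −1.01 with a minimum mean of 50. For KU55933 and etoposide against LPS it was −1.003, −1.08, −0.86, −0.94, −1.24 and −1.12 in the same order. For KU55933 and etoposide against etoposide it was −0.071 with library totals, −0.024 with quantile normalization, −0.21 with the columns as deposited and −0.085 with no filter. Past the fold were 4 genes with the columns as deposited in etoposide against LPS, and 4 in either comparison with LPS when 2-fold was asked for. No single-gene difference from LPS changed sign under these settings, while 5 of 80 differences between the etoposide conditions did. Leaving out each library in turn gave medians of −1.07 to −1.06, −0.13 to −0.11 and −1.17 to −1.16 in etoposide against LPS, KU55933 and etoposide against etoposide, and KU55933 and etoposide against LPS, and counts of 7, 0 and 8 genes past 1.5-fold. Because the columns are fitted, this shows only how the scaling moves, and not how stable the levels are between replicates. The cause of the shifts with other scalings was not tested.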

Other observations

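Genes of fatty acid synthesis, which share SREBP control, were also lower with etoposide. Of 11 genes, 9 were lower and 7 were past 1.5-fold downward, with a median log2 difference of −0.79, where 16.0% of all genes, and 19.0% of those with a mean of at least 1000 counts, were lower by at least 1.5-fold. Elovl6, a fatty acid elongase, was at 1162, 385 and 380 normalized counts with LPS, etoposide alone and etoposide after KU55933 (log2 −1.59 with etoposide alone). Scd1, the stearoyl-CoA desaturase, was at 53823, 28200 and 35688 counts (−0.93), and Fasn, the fatty acid synthase, at 12313, 6608 and 5599 counts (−0.90). With KU55933 the list had a median of −0.067 against etoposide alone, with Fads1 at 0.54, Elovl5 at 0.46 and Fads2 at −0.52. Me1, named after its values were seen, was past 1.5-fold in both comparisons, upward with etoposide and downward with KU55933, at 12.4, 19.4 and 7.69 counts.

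Branches of the mevalonate pathway that lead to ubiquinone, dolichol and prenylated proteins were followed with 7 genes. Their median was −0.067 with etoposide against LPS, with Pdss2 at −0.62, Coq2 at 0.58 and Dhdds at 0.49. With KU55933 their median was −0.26 against etoposide alone, with Pdss2 at −0.37, Dhdds at −0.35 and Coq2 at −0.34. None was past 1.5-fold in this comparison, where 10.7% of all genes were lower and 6.98% higher by at least 1.5-fold.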
